A study of Danio rerio with 4 samples.

Results

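Cells with abundant agr2 RNA were examined in zebrafish skin before and after wounding. The cells had been given the working name mucous cells, and 604 of 29185 kept cells met the rule, which asked for at least 3 agr2 UMIs (unique molecular identifiers, 1 per captured RNA molecule) that made up at least 0.05% of the cell's UMIs. The data were single-cell RNA sequencing (10x Genomics droplets) of adult zebrafish labelled as wild type. The 4 libraries were unwounded skin without treatment, and wounds at 2, 4 and 6 days post wounding (dpw). Each library pooled tissue of 3 fish, so fish cannot be told apart within it. Skin without a wound was scraped off, whereas wounds were cut out with a 4 mm punch, and these methods cannot be told apart from the wounding itself. There is 1 library per condition, so no test between conditions was possible. All intervals below are 95% intervals for counting error only and do not cover the spread between fish.

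Mucous cells, also called goblet cells, are secretory cells of the fish epidermis that release gel-forming mucins to coat the body surface. Mucins are very large glycoproteins, which fold and form disulfide bonds in the endoplasmic reticulum (ER), receive O-linked sugars in the Golgi apparatus and are packed into granules for exocytosis. The product of agr2 belongs to the protein disulfide isomerase family of the ER, and in mice it is needed for intestinal mucin production. Because agr2 chose the cells, its level below is a description and supports nothing.

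The agr2-positive cells numbered 174 in unwounded skin, 157 at 2 dpw, 127 at 4 dpw and 146 at 6 dpw. Their median depth was 5007.5, 5551, 5227 and 5709.5 UMIs in the same order, against medians of 3979 to 4190 UMIs over the kept cells of each library. No cell barcode of an agr2-positive cell occurred in another library, while 35 to 45 barcodes of kept cells per library did. Doublets were not called, and 151 of the 604 cells held over 10000 UMIs. agr2 made up a median of 0.213% of a cell's UMIs, with a range of 0.0507% to 14.9%, and 113 cells reached 1%. The rule had a soft edge. Of the cells inside it 79 held exactly 3 agr2 UMIs, while 168 cells with 2 UMIs and 110 cells with a share below 0.05% fell just outside, with shares of up to 0.388% and 0.0490%. The agr2-positive cells nevertheless held 86.3% to 94.9% of all agr2 UMIs of their library. After thinning every cell to 500 UMIs, an agr2 UMI was found in 69.7% of them, against 1.85% of epcam-positive epithelial cells (12.3% unthinned, median depth 10497 UMIs) and 0.315% of marco-positive macrophage-lineage cells (6.77% unthinned, median depth 10017 UMIs). Free RNA can give such low shares in cells that do not express a gene.

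The label held for only some of the cells. The genes that stood out within the 604 cells separated them into groups that hardly overlapped, and each group was defined by the same rule of 3 UMIs and 0.05% of UMIs, applied to the mucin genes muc5.1 and muc5.2 together, to the cystatin gene cst14b.2 and to avil, which encodes the actin-binding protein advillin. These genes were picked after their values were seen. The mucin rule alone was met by 214 cells, the cst14b.2 rule alone by 140 and the avil rule alone by 112. Only 6 cells met more than 1 of these rules, and 132 cells met none. The mucin-positive cells are the ones to which the label applies, and the other cells are named here by their leading gene. The cells were chosen by agr2, so its level in the groups is a description, and cells below the rule are left out of it. It was 17639 CPM (17447 to 17833) in the mucin-positive cells and 1603 CPM in the cst14b.2-positive cells. The avil-positive cells had 1660 CPM and the remaining ones 2017 CPM. CPM scales a gene's UMIs by the total summed over the cells of a group, so that 10000 CPM are 1% of the UMIs.

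**Figure D1:**
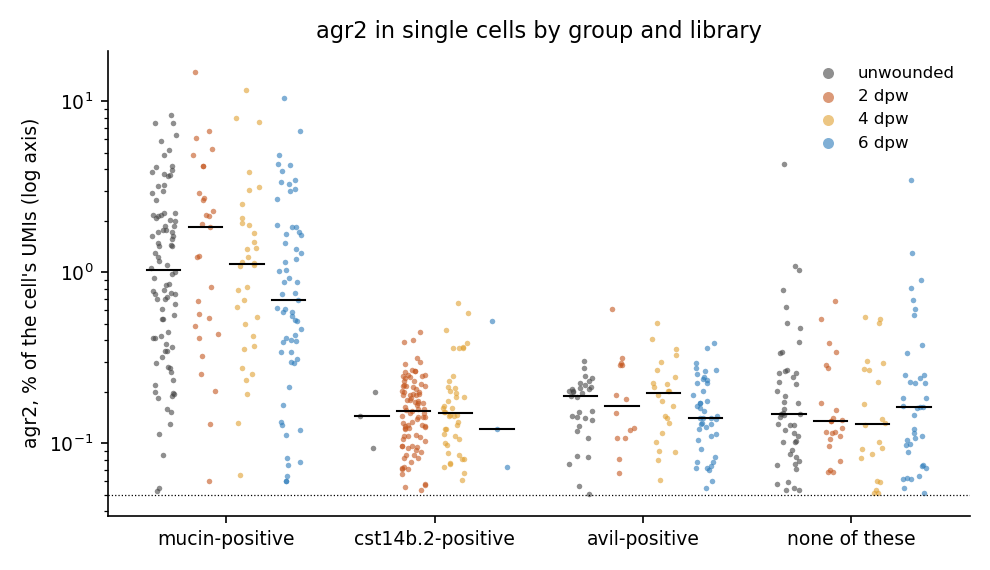
Each point is 1 cell, placed by its group on the horizontal axis and by agr2 as a percentage of its UMIs on a log vertical axis, with colours for the 4 libraries and a dotted line at the rule's 0.05%. Cells at or above 1% lie almost wholly in the mucin-positive group, whose median was 0.988%, against medians of 0.141% to 0.164% in the cst14b.2-positive, avil-positive and remaining cells.

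The mix of groups differed between the stages. Mucin-positive cells made up 51.7% (44.0 to 59.4) of the agr2-positive cells of unwounded skin, 18.5% (12.7 to 25.4) at 2 dpw, 26.8% (19.3 to 35.4) at 4 dpw and 41.8% (33.7 to 50.2) at 6 dpw. The cst14b.2-positive cells were 3 of 174 in unwounded skin, 90 of 157 at 2 dpw, 44 of 127 at 4 dpw and 3 of 146 at 6 dpw. The avil-positive cells were 31, 14, 24 and 43 in the same order. A level averaged over all agr2-positive cells therefore moves with this mix, and most results below are given within a group.

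As a share of all kept cells, mucin-positive cells were 1.55% in unwounded skin, 0.374% at 2 dpw, 0.465% at 4 dpw and 0.734% at 6 dpw. The ratio to unwounded skin was 0.241 (0.159 to 0.366) at 2 dpw, 0.300 (0.202 to 0.444) at 4 dpw and 0.473 (0.342 to 0.654) at 6 dpw, so each wound library held a smaller share of them, and the share at 6 dpw lay above that at 2 dpw. A further 98 kept cells met only the mucin rule among the group rules, but not the agr2 rule, and are not counted here. They numbered 36 in unwounded skin and 20, 21 and 21 at 2, 4 and 6 dpw. The make-up of the libraries differed as well, with 158 marco-positive cells among 5802 kept cells of unwounded skin and 1047 among 7754 at 2 dpw. Counted among epithelial cells (agr2-positive plus epcam-positive cells, without those past the cst14b.2 rule), the ratios of mucin-positive cells were 0.459 (0.303 to 0.695), 0.647 (0.438 to 0.955) and 0.586 (0.425 to 0.808). The cst14b.2-positive cells went the other way, with a ratio to unwounded skin of 22.4 (7.11 to 70.9) at 2 dpw, 11.6 (3.61 to 37.4) at 4 dpw and 0.698 (0.141 to 3.46) at 6 dpw. These ratios hold only for cells past the agr2 rule. More kept cells met only the cst14b.2 rule among the group rules, but not the agr2 rule. They numbered 11 in unwounded skin and 184, 174 and 31 at 2, 4 and 6 dpw. At 4 dpw their median depth was 1503.5 UMIs, against 3694 UMIs in the counted cells. For avil-positive cells the ratio was 0.338 (0.18 to 0.635) at 2 dpw, while the intervals at 4 dpw (0.361 to 1.05) and 6 dpw (0.611 to 1.53) included 1. For all agr2-positive cells together the ratios were 0.675, 0.579 and 0.586 among kept cells. Without the cells past the cst14b.2 rule they were 0.561 (0.426 to 0.740), 0.836 (0.648 to 1.08) and 0.728 (0.586 to 0.904) among epithelial cells, where the interval at 4 dpw included 1.

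**Figure D2:**
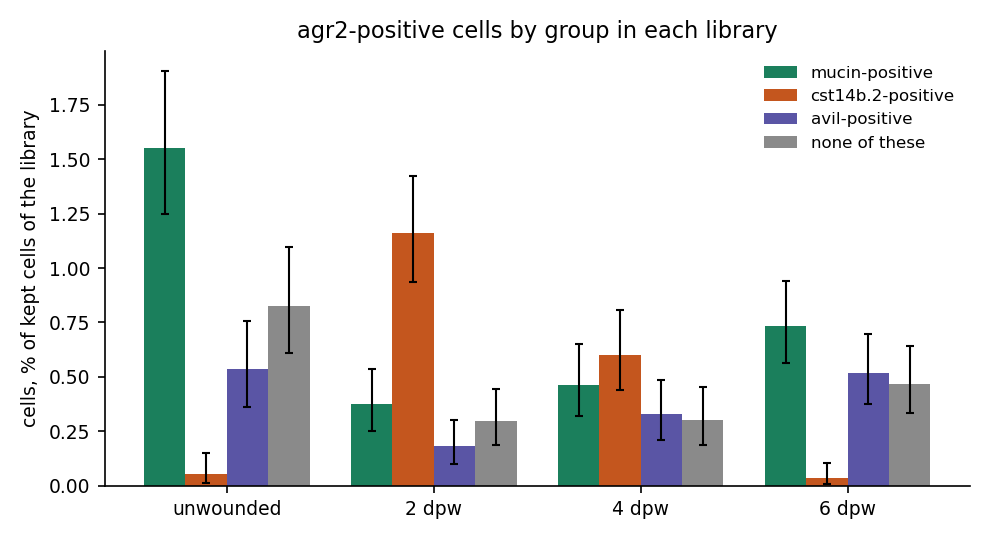
Bars give the cells of each group as a percentage of the kept cells of the library, with exact 95% binomial intervals, with the unwounded library first and then 2, 4 and 6 dpw. Mucin-positive cells stand at 1.55% in unwounded skin and at 0.374% at 2 dpw, where cst14b.2-positive cells reach 1.16%.

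Set against all other kept cells of the same library, 718 of 17273 genes (4.16%) were at least 2-fold higher in agr2-positive cells in each of the 4 libraries. The cells were chosen within this contrast, so the list describes them and tests nothing. Of the 20 genes with the largest median ratio, 17 had their highest level in the mucin-positive cells and 3 in the avil-positive cells (si:ch73-208h1.1, crp6 and si:ch73-359m17.6). After agr2 itself, with a median ratio of 468, the annotated genes of the list included muc5.2 with 445 and muc5.1 with 250, which encode gel-forming mucins, st6galnac1.1 with 269, which encodes a sialyltransferase of O-glycans, foxa3 with 162, a forkhead transcription factor, cracr2b with 132 and tspan13a with 127. The remaining ones were mostly genes without an assigned function, such as the gene with the Ensembl ID ENSDARG00000025783 with 681, si:dkey-65b12.6 with 368 and zgc:172053 with 243. A pair of gene IDs that both carry the symbol MFAP4 had ratios of 479 and 344, and near-identical copies may share reads.

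**Figure D3:**
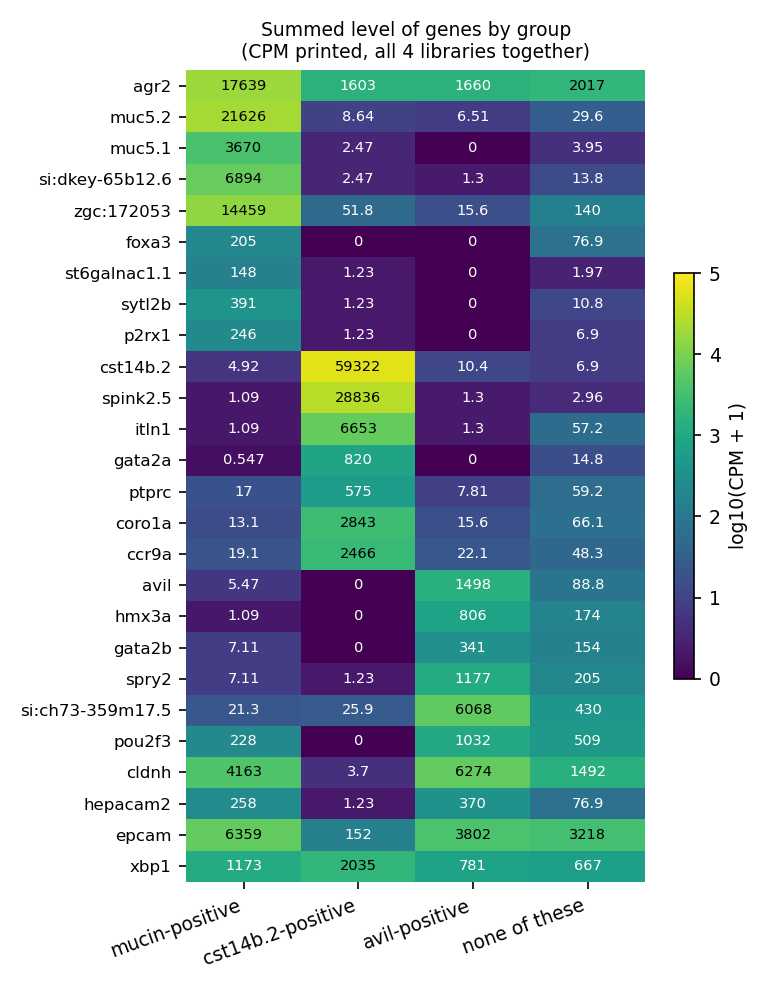
Each cell of the grid prints the summed level in CPM of 1 gene (row) in 1 group of agr2-positive cells (column), all 4 libraries together, and the colour shows log10 of CPM plus 1. The block of muc5.2, foxa3 and st6galnac1.1 is high in mucin-positive cells, cst14b.2 and itln1 in cst14b.2-positive cells, and avil and pou2f3 in avil-positive cells.

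In the mucin-positive cells muc5.2 was the leading mucin. It was detected in 214 of 214 cells, at 19928 CPM in unwounded skin, 19490 CPM at 2 dpw, 28568 CPM at 4 dpw and 22192 CPM at 6 dpw, against 24.7 CPM in epcam-positive cells. The ratio to unwounded skin was 0.978 at 2 dpw, 1.43 (1.4 to 1.47) at 4 dpw and 1.11 at 6 dpw, so no stage reached a 2-fold change. muc5.1 stood at 4100, 4795, 2750 and 2648 CPM in the same order and was seen in 170 cells. Both mucins met the 3-UMI rule in 134 cells, muc5.2 alone in 77, muc5.1 alone in 1, and 2 cells met it only by the sum. Together the mucins made up a median of 2.71%, 2.79%, 2.78% and 3.01% of a cell's UMIs without a wound and at 2, 4 and 6 dpw. The mucins chose these cells, so a cell with little mucin RNA is not among them and these levels are a description. The muc5.2 share of single cells was broad, with 80% of cells between 0.405% and 8.55%.

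Of the 7 mucin genes in the files, 4 were at 0 in the agr2-positive cells. Of the 13 genes in the files from a list known for mucous cells, 9 held at least 20 UMIs and 6 of them were highest in the mucin-positive cells, where 20.7% of all 8923 genes with at least 20 UMIs had their highest level. Among these 6 genes were agr2, muc5.1 and muc5.2, which chose the cells. The count is therefore a description and does not back the label. The others were the transcription factor genes foxa3 with 205 CPM and creb3l1 with 70.0 CPM, and ern2 with 32.8 CPM. The product of ern2 is a stress sensor of the ER found in mammalian mucous epithelia. foxa3 was at 224, 237, 200 and 147 CPM without a wound and at 2, 4 and 6 dpw, against 1.18 CPM in epcam-positive cells. The lectin gene itln1, another member of the list, lay at 1.09 CPM in the mucin-positive cells and at 6653 CPM in the cst14b.2-positive ones. pvalb8 and atoh1a, also on the list, had their highest level in the cells that met no rule, where they were seen in 6 and 2 cells.

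The genes of the secretory route were read as lists, each with the count of genes that had at least 20 UMIs and peaked in the mucin-positive cells rather than in another group. Over all genes with at least 20 UMIs the highest level lay in the mucin-positive cells for 20.7% and in the cst14b.2-positive cells for 17.2%. For the avil-positive cells it was 39.7% and for the remaining cells 22.4%. All such counts, here and elsewhere, compare levels pooled over the 4 libraries. The groups differ in their mix of stages. Unwounded skin gave 90 of 214 mucin-positive cells, while 2 dpw gave 90 of 140 cst14b.2-positive cells. Group and stage are therefore not separated in these counts. For ER translocation and ER to Golgi transport it was 41 of 61 genes, for enzymes of O-glycan synthesis 23 of 38 and for ER stress and degradation 10 of 21. Of the ER folding genes 8 of 34 peaked there and 16 in the avil-positive cells, near the shares over all genes. A high count was not particular to the secretory route. Of the immediate-early (rapid response) genes 21 of 32 peaked in the mucin-positive cells, and of the epidermal markers 15 of 21. Of the cell cycle genes 0 of 32 did, and of the interferon and MHC genes 2 of 19. kdelr2b, whose product returns ER proteins from the Golgi, had 572 CPM in mucin-positive cells, against 67.3 CPM in epcam-positive cells, and copz2, for a coat protein of the same route, had 317 against 43.3 CPM. Among the sugar genes st6galnac1.1 had 148 CPM, against 0.260 CPM in epcam-positive cells. gnpnat1 and gfpt1, which act in the synthesis of the sugar donor UDP-N-acetylglucosamine, had 372 and 130 CPM, against 130 and 12.9 CPM in epcam-positive cells. galnt6, for an enzyme that starts O-glycans, had 168 CPM, against 59.1 CPM.

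Genes for granule release were less uniform, with 9 of 25 highest in the mucin-positive cells, 5 in the cst14b.2-positive cells and 9 in the avil-positive cells. sytl2b, whose product tethers granules through Rab27 proteins, had 391 CPM in mucin-positive cells and 1.11 CPM in epcam-positive cells, and was at 0 in avil-positive cells. fer1l4, of the ferlin family of membrane fusion proteins, had 196 against 1.31 CPM, and p2rx1, an ATP-gated ion channel, had 246 against 1.58 CPM. Of 30 claudin and junction genes 17 peaked in the mucin-positive cells. The claudin gene cldnh had 4163 CPM there and 164 CPM in epcam-positive cells, with 6274 CPM in avil-positive cells and 3.70 CPM in cst14b.2-positive cells. The keratin gene krt5 was at 8650 CPM in mucin-positive cells, against 18401 CPM in epcam-positive cells.

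Across the 214 mucin-positive cells muc5.2 and si:dkey-65b12.6 varied together, with Spearman's rho of 0.92, and zgc:172053 and ENSDARG00000069381 with 0.81. The rho of muc5.2 was 0.43 with muc5.1, 0.07 with agr2 and -0.53 with icn2, an epidermal gene. Within single libraries it ran from 0.20 to 0.69 with muc5.1, from -0.14 to 0.35 with agr2 and from -0.64 to -0.05 with icn2. These are descriptions over cells that share libraries and differ in depth. A smaller set of 25 mucin-positive cells also met the rule for ENSDARG00000025783, a gene of no assigned function, and this split was chosen after the values were seen. They were 8.89%, 10.3%, 17.6% and 13.1% of the mucin-positive cells without a wound and at 2, 4 and 6 dpw. MFAP4 (the first of its IDs) met the rule in 96% (79.6 to 99.9) of the 25 cells and in 40.7% (33.7 to 48.1) of the other 189. The keratin gene krt94 met it in 60% (38.7 to 78.9) against 15.3% (10.5 to 21.3). muc5.1 met it in 32% (14.9 to 53.5) against 67.2% (60 to 73.8), and icn2 in 8% (0.984 to 26.0) against 60.3% (53.0 to 67.3). muc5.2 was at 38198 CPM in the 25 cells, against 20182 CPM in the 189, but at 4 dpw the order was turned, with 22914 CPM in 6 cells, against 29488 CPM in 28. Over all libraries median depths were 4811 and 6800 UMIs. Cells with ENSDARG00000025783 thus met the MFAP4 and krt94 rules more often and the muc5.1 and icn2 rules less often than the other mucin-positive cells, though most cells with MFAP4 lay outside the 25.

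**Figure D4:**
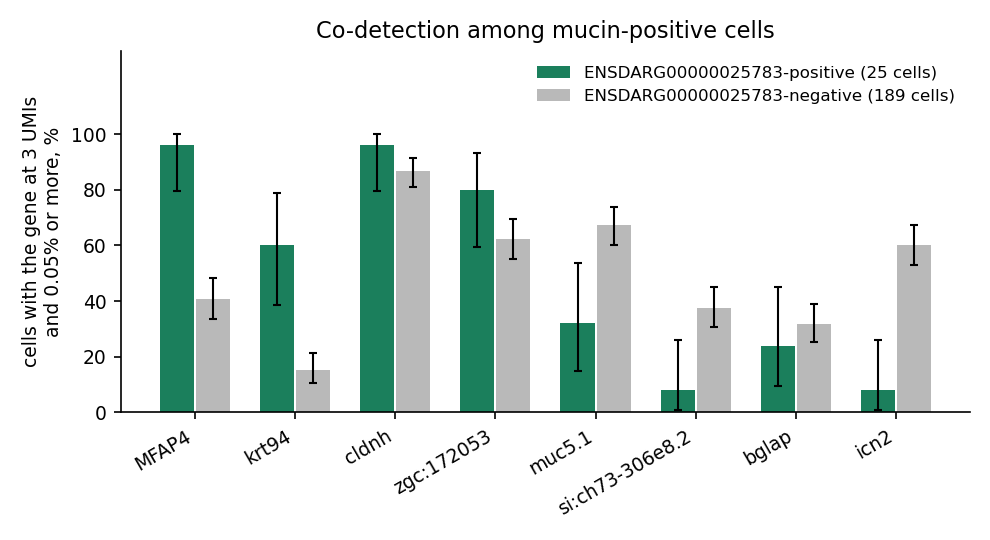
Bars give the percentage of mucin-positive cells in which a gene reached 3 UMIs and 0.05% of UMIs, for the 25 cells with and the 189 cells without ENSDARG00000025783, with exact 95% binomial intervals. MFAP4 (96% against 40.7%) and krt94 (60% against 15.3%) are more frequent with it, muc5.1 and icn2 less frequent.

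Within the mucin-positive cells, most genes differed by less than 2-fold between a wound and unwounded skin. Of 2193 genes with at least 50 UMIs over both libraries, 63 (2.87%) were at least 2-fold higher and 158 (7.2%) at most 0.5-fold at 2 dpw. At 4 dpw 72 of 2205 genes were higher (3.27%) and 127 lower (5.76%), and at 6 dpw 73 of 2405 were higher (3.04%) and 104 lower (4.32%). These are the background shares for the lists below. The libraries compared held 90 mucin-positive cells for unwounded skin and 29, 34 and 61 for the wounds, so a few cells can carry a gene. Another scaling moved the mucin-positive ratios by -0.11 (TMM) on the log2 scale at 4 dpw and by 0.13 (median of ratios) at 6 dpw, and those over all agr2-positive cells by 0.23 and 0.26 at 2 dpw. The other shifts were under 0.1.

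The genes that were higher in the wounds included zgc:172053 and the uncharacterised gene ENSDARG00000069381, which varied together across cells. zgc:172053 had 9856 CPM in unwounded skin, 19951 CPM at 2 dpw, 19953 CPM at 4 dpw and 16630 CPM at 6 dpw, with ratios of 2.02 (1.96 to 2.09), 2.02 (1.96 to 2.1) and 1.69. In epcam-positive cells its ratios were 0.954, 0.804 and 0.514. After thinning to 500 UMIs it was seen in 47.8% of the mucin-positive cells of unwounded skin and in 65.5%, 67.6% and 73.8% of those at 2, 4 and 6 dpw, and 1 cell held 10.8%, 31.6%, 32.5% and 13.8% of its UMIs. ENSDARG00000069381 had 828, 3735, 1279 and 2645 CPM in the same order, with ratios of 4.51 (4.10 to 4.97), 1.54 and 3.2 (2.91 to 3.51). Of its UMIs 1 cell held between 23.0% and 32.2% in each library.

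A few ER chaperone genes passed the 2-fold mark at 4 dpw. hyou1, whose product is a large chaperone of the Hsp70 family in the ER, had 128, 273, 374 and 186 CPM without a wound and at 2, 4 and 6 dpw, and was seen in 39 of 90, 19 of 29, 20 of 34 and 26 of 61 cells. Its ratio was 2.13 (1.57 to 2.88) at 2 dpw and 2.92 (2.2 to 3.87) at 4 dpw, against 1.85 and 1.74 in epcam-positive cells. hsp90b1, the ER form of Hsp90, had 290, 344, 589 and 322 CPM, with a ratio of 2.03 (1.65 to 2.5) at 4 dpw, against 1.64 in epcam-positive cells. Of the ER folding list 3 of 25 genes were at least 2-fold higher and 0 lower at 4 dpw, hyou1, hsp90b1 and pdia4, with a median ratio of 1.27, while the median over all genes tested was 0.957. hspa5, for the main Hsp70 chaperone of the ER, had a ratio of 1.38 (1.21 to 1.58). At 2 dpw the count was 1 of 23 with a median of 1.14, and at 6 dpw 0 of 25 with a median of 0.868.

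**Figure D5:**
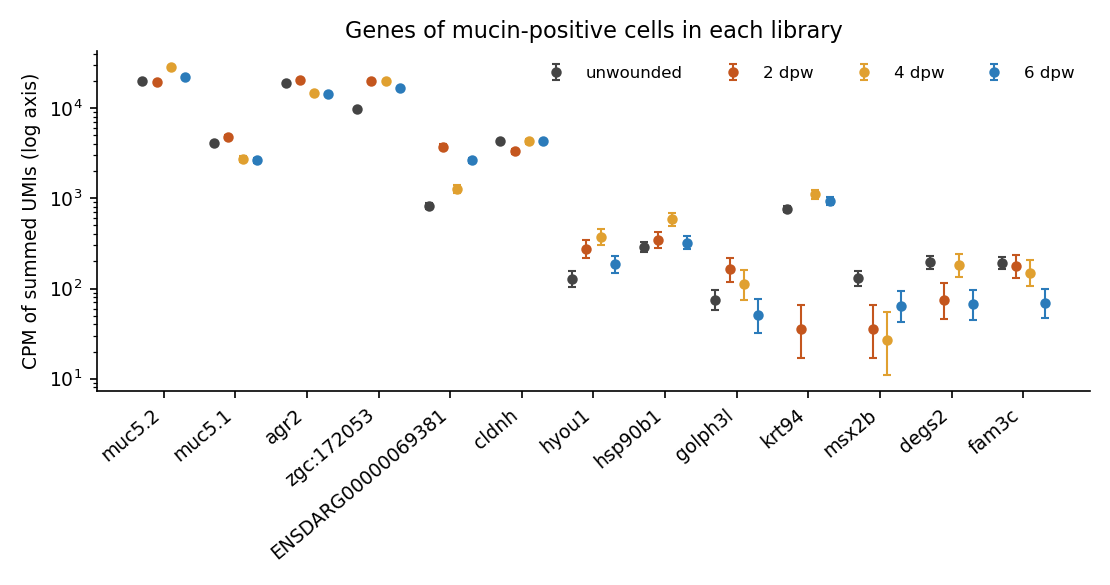
Points give the CPM of summed UMIs in the mucin-positive cells of each library on a log axis, with exact 95% Poisson intervals. muc5.2 stays between 19490 and 28568 CPM, while zgc:172053 lies between 16630 and 19953 CPM in the wound libraries, above 9856 CPM in unwounded skin.

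Several other genes that met the 2-fold mark had low levels or rested on 1 cell. tcima had 298 CPM at 2 dpw, against 97.5 CPM in unwounded skin, a ratio of 3.05 (2.23 to 4.19), with 0.807 in epcam-positive cells. golph3l, for a Golgi membrane protein, had 163 against 75.2 CPM, a ratio of 2.17 (1.45 to 3.22), with 0.570 in epcam-positive cells. arrdc3a had a ratio of 2.59 (1.76 to 3.78), and cited4a one of 2.45 (1.65 to 3.66) at 6 dpw. At 4 dpw ENSDARG00000025783 had a ratio of 2.48, but 65.7% of its UMIs there came from 1 cell. At 6 dpw si:ch211-153b23.5 (7.15), nos2a (5.48), the inducible nitric oxide synthase gene, and sult2st3 (2.45), a sulfotransferase gene, drew 93.8%, 99.3% and 94.4% of their UMIs from 1 cell each, and without the leading cell of each library the ratios were 0.607, 0.0624 and 0.221. mknk2b completed the leading genes at 4 dpw with 1.96, below the mark.

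Among the genes that were lower, krt94 had 763 CPM in unwounded skin, 35.4 CPM at 2 dpw, 1109 CPM at 4 dpw and 943 CPM at 6 dpw. Its ratio at 2 dpw was 0.0464 (0.0222 to 0.0859), while in epcam-positive cells it was 33.3, so the 2 kinds of cell differed in opposite directions. mhc2dab, an MHC class II gene, had 49.6 CPM at 2 dpw, against 193 CPM in unwounded skin (0.258, 0.138 to 0.445). Its ratio in epcam-positive cells was 0.318. At 4 dpw msx2b, a homeobox gene, had a ratio of 0.209 (0.0820 to 0.445) and the claudin gene cldn23b one of 0.301 (0.134 to 0.596), with 0.355 and 0.393 in epcam-positive cells. sult2st3 was at 198 UMIs in unwounded skin, 10 UMIs at 2 dpw and 1 UMI at 4 dpw (0.152 at 2 dpw). In epcam-positive cells its ratios were 0.335 and 0.250 at 2 and 4 dpw. si:ch211-207n23.2 had 0.127 at 2 dpw and 0.213 at 4 dpw, and si:dkey-7c18.24 had 0.133 and 0.113. The epcam-positive cells had 0.366 and 0.429 for the former and 0.319 and 0.502 for the latter. At 6 dpw fam3c, which encodes a small secreted protein, had 69.0 CPM, against 193 CPM in unwounded skin, a ratio of 0.358 (0.234 to 0.531). It was seen in 23 of 61 cells, against 60 of 90, and its ratio in epcam-positive cells was 0.692. degs2, for a sphingolipid enzyme, had a ratio of 0.342 (0.222 to 0.510), ponzr6 0.239 (0.115 to 0.449), CU459056.1 0.401, and stmn1a, for a microtubule regulator of dividing cells, 0.257 (0.150 to 0.416). In epcam-positive cells these ratios were 0.583, 0.490, 1.47 and 0.980. Among cells with at most 10000 UMIs, however, the stmn1a ratio was 1.58, so its direction depended on the deepest cells.

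Chemokine genes were among the lists that were lower. Of 6 cytokine and chemokine genes tested in the mucin-positive cells 1 was higher and 5 lower at 2 dpw, 0 higher and 4 lower at 4 dpw, and 0 higher and 1 lower at 6 dpw, with medians of 0.215, 0.381 and 0.698. cxcl8b.1, for a neutrophil-attracting chemokine, had 177, 81.5, 61.6 and 129 CPM without a wound and at 2, 4 and 6 dpw, seen in 18, 3, 6 and 10 cells, with ratios of 0.460, 0.347 and 0.727. In epcam-positive cells its ratios were 0.343, 0.878 and 1.14. cxcl18b had 109, 10.6, 3.85 and 55.2 CPM, seen in 6, 3, 1 and 8 cells. The 1 higher gene at 2 dpw was ccl27a with 142 CPM, against 63.4 CPM in unwounded skin.

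Of the immediate-early genes, which respond within minutes to stimulation and to tissue handling, 0 of 28 were higher and 7 lower at 2 dpw, 0 of 29 and 3 at 4 dpw, and 1 of 29 and 1 at 6 dpw, with medians of 0.682, 1.04 and 1.28. For the junction genes it was 0 of 25 higher and 4 lower at 2 dpw, 2 of 26 and 2 at 4 dpw, and 0 of 25 and 0 at 6 dpw, with medians of 0.677, 0.930 and 0.922. The glycan enzymes had 0 of 17 higher and 3 lower at 2 dpw, 0 of 16 and 3 at 4 dpw and 0 of 18 and 0 at 6 dpw, with medians of 0.946, 0.842 and 0.895. Of the transport genes 0 of 40, 1 of 42 and 0 of 42 were higher and 0, 0 and 1 lower at 2, 4 and 6 dpw, with medians of 1.01, 1.05 and 0.902. The medians over all genes tested were 0.961, 0.957 and 0.919. The immediate-early and junction medians lay below this at 2 dpw, and the immediate-early median above it at 6 dpw.

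RNA of other cell types was present at low levels and moved with the stage. In mucin-positive cells the 10 fibroblast markers summed to 124 CPM without a wound and to 81.5, 824 and 1440 CPM at 2, 4 and 6 dpw. At 4 dpw 3 of them had enough UMIs to be compared and 3 were over 2-fold higher, and at 6 dpw the counts were again 3 and 3. The 10 macrophage markers summed to 126, 188, 42.4 and 43.7 CPM. Of 3 haemoglobin genes tested 3 were at least 2-fold higher at 2 and 4 dpw and 2 at 6 dpw. Leaving out cells bearing markers of other types gave fewer higher genes at 4 dpw, from fewer cells, as given in the last section. Otherwise the part of this RNA in the gene results was not tested.

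The cst14b.2-positive cells had other leading genes than the mucin-positive cells. cst14b.2, for a cystatin protease inhibitor, was at 59322 CPM over 140 cells, and spink2.5, for a serine protease inhibitor of the Kazal type, at 28836 CPM in 140 of 140 cells. Other leading genes were si:dkey-203a12.2 with 31312 CPM, si:ch1073-67j19.1 with 28226 CPM, which RefSeq names teni.1, and si:dkeyp-75b4.10 with 20043 CPM. The secreted lectin gene itln1 had 4872, 7078, 5916 and 3694 CPM without a wound and at 2, 4 and 6 dpw and was seen in 139 of 140 cells. gata2a, for a GATA transcription factor, had 820 CPM, and the complement gene c3a.4 had 1671 CPM, against 0.460 and 0.470 CPM in epcam-positive cells. The haptoglobin gene hp had 2626 CPM, against 69.2 CPM in all kept cells that were not agr2-positive.

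These cells carried genes of blood-derived cells and hardly any of epithelium. coro1a, an actin regulator of leukocytes, had 2843 CPM and ptprc, the common leukocyte antigen CD45, had 575 CPM, seen in 136 and 125 of 140 cells, against 198 and 152 CPM in all kept cells that were not agr2-positive. The chemokine receptor gene ccr9a, known from T cells, had 2466 CPM in 127 of 140 cells, and cxcr4b had 1116 CPM. The T cell genes cd8a and zap70, in contrast, lay at 3.70 and 1.23 CPM. Of 5 T cell markers with at least 20 UMIs, 2 peaked in the cst14b.2-positive cells and 3 in the remaining cells. The peroxidase genes epx of eosinophils and mpx of neutrophils were at 0 and 4.94 CPM in the cst14b.2-positive cells. Of 4 neutrophil markers with at least 20 UMIs, however, 3 peaked in the cst14b.2-positive cells and 1 in the remaining cells. Over all genes 17.2% peaked in the cst14b.2-positive cells. The macrophage list summed to 70.4 CPM in them, against 1088 CPM in the kept cells that were not agr2-positive. epcam, muc5.2, avil and foxa3 were at 152, 8.64, 0 and 0 CPM. No cell type is named for these cells. Genes of glycolysis and hypoxia peaked in this group in 13 of 19 cases, against 17.2% of all genes. Examples were ldha with 804 CPM and eno1a with 712 CPM, against 78.1 and 37.9 CPM in epcam-positive cells. Secreted defence genes peaked there in 9 of 17 cases. Group and stage are mixed in these counts, since 90 and 44 of the 140 cells came from 2 and 4 dpw. Within mucin-positive cells the median ratio of the glycolysis and hypoxia list was 1.31, 1.09 and 0.840 at 2, 4 and 6 dpw. xbp1, the transcription factor of the secretory ER, had 2035 CPM, against 1173 CPM in the mucin-positive cells.

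Between the stages cst14b.2-positive cells can be compared only at 2 and 4 dpw, since unwounded skin and 6 dpw held 3 cells each. si:ch1073-67j19.1 had 34560 CPM at 2 dpw and 14388 CPM at 4 dpw. cst14b.2 had 64012 and 49291 CPM, spink2.5 26985 and 32346 CPM, and ccr9a 2388 and 2886 CPM. A further 400 cells met the cst14b.2 rule alone among the group rules but not the agr2 rule. Of these, 11 were in unwounded skin, 184 at 2 dpw, 174 at 4 dpw and 31 at 6 dpw. Their median depth was 1945 UMIs, against 4833 UMIs in the cst14b.2-positive cells with agr2, and their agr2 level was 124.8 CPM (109 to 143), against 16.2 CPM in epcam-positive cells. Cells outside the agr2 rule that met only the mucin rule had 107 CPM of agr2, and those that met only the avil rule 307 CPM.

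The avil-positive cells carried the epithelial gene epcam, at 3802 CPM and seen in 112 of 112 cells, and almost no mucin RNA. muc5.1, foxa3, st6galnac1.1 and sytl2b were at 0, and muc5.2 was at 6.51 CPM. Advillin itself had 1919, 1556, 1510 and 1249 CPM without a wound and at 2, 4 and 6 dpw. pou2f3, a transcription factor gene required for tuft cells in mice, had 919, 971, 1237 and 976 CPM and was seen in 107 of 112 cells, against 13.8 CPM in all kept cells that were not agr2-positive. Other genes at high levels were spry2 with 1177 CPM, an inhibitor of growth factor signalling, the homeobox gene hmx3a with 806 CPM, the adhesion receptor gene adgrf3a with 551 CPM, il13ra1 with 501 CPM, a receptor chain for interleukins, and alox5ap with 273 CPM, which helps 5-lipoxygenase to make leukotrienes. In epcam-positive cells these had 8.82, 6.36, 5.01, 60.8 and 1.87 CPM. pou2f3 was also present at 228 CPM in the mucin-positive cells and at 0 in the cst14b.2-positive ones.

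In the avil-positive cells some genes differed between the stages by more than their counting error. The genes below are examples, and the share of all genes that differed is not given here. isg15, a gene induced by interferon, had 3584 CPM (3297 to 3889) in unwounded skin, 694 CPM (541 to 876) at 2 dpw, 975 CPM (844 to 1121) at 4 dpw and 187 CPM (142 to 243) at 6 dpw, and was seen in 29 of 31, 9 of 14, 19 of 24 and 20 of 43 cells. crp6 had 1366, 723, 836 and 312 CPM. The chemokine gene ccl20b had 720, 248, 39.6 and 26.3 CPM but was seen in only 9, 1, 3 and 6 cells, 1 of which held 59% of its UMIs in unwounded skin. The chaperone genes hspa5 (888, 2100, 2237 and 2323 CPM) and hsp90b1 (491, 1139, 1336 and 1324 CPM) were higher in each wound library. In epcam-positive cells the ratios at 2, 4 and 6 dpw were 0.81, 0.96 and 1.31 for hspa5. For hsp90b1 they were 1.58, 1.64 and 1.46 there, and for isg15 0.85, 0.57 and 0.61. The proliferation gene mki67 had 6.21, 238, 460 and 204 CPM and was seen in 1 of 31, 2 of 14, 7 of 24 and 7 of 43 cells. hmgb2a, for a chromatin protein of dividing cells, had 602, 1456, 2579 and 1962 CPM. Median depth also differed, with 4227, 7341.5, 7897 and 6784 UMIs, and its part in these results was not tested.

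The 132 cells that met no group rule were mixed, with epcam seen in 120 of them. pou2f3 was seen in 76, avil in 37, foxa3 in 20 and muc5.2 in 21 of them. Of 32 cell cycle genes 18 peaked in this group and 14 in the avil-positive cells, with 0 in the mucin-positive cells, against 22.4%, 39.7% and 20.7% of all genes. mki67 had 237 CPM in 27 cells and stmn1a 573 CPM in 46 cells, against 76.6 and 126 CPM in the mucin-positive cells and 23.5 and 81.9 CPM in epcam-positive cells.

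Over all agr2-positive cells together the counts of genes past the mark differed between the stages, as did the mix of groups. At 2 dpw 436 of 4159 genes were higher (10.5%) and 812 lower (19.5%), at 4 dpw 308 of 4020 higher (7.66%) and 261 lower (6.49%), and at 6 dpw 160 of 4172 higher (3.84%) and 173 lower (4.15%). Without the cst14b.2-positive cells the counts at 2 dpw were 103 higher and 243 lower, and at 4 dpw 185 and 162. The leading higher genes at 2 dpw were those of the cst14b.2-positive cells. si:dkey-203a12.9 had 791 UMIs, against 0 UMIs in unwounded skin, and 790 of these UMIs lay in cst14b.2-positive cells. Its ratio was 323 with a floor of 3 UMIs set for unwounded skin, and the lower limit of its interval was 262. sult5a1 (178), c3a.4 (174), si:ch1073-67j19.1 (167, 142 to 198) and si:ch1073-376c22.1 (161) followed. At 4 dpw sult5a1 (100.9), c3a.4 (79.2), si:ch1073-376c22.1 (136) and si:ch211-194m7.8 (109) were again high. Their ratios in all kept cells that were not agr2-positive were 3.68, 16.1, 28.0 and 29.6. The 377 UMIs of BX323793.1, at 0 in unwounded skin, came from 1 cell.

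The genes with the lowest ratios over all agr2-positive cells were often those of few cells in unwounded skin. wu:fk65c09 had 709 UMIs in unwounded skin, 1 at 2 dpw and 5 at 4 dpw, and 1 cell held 80.7% of those in unwounded skin. fabp1b.2, for a fatty acid binding protein, had ratios of 0.00593 and 0.0158 at 2 and 4 dpw, with 68.6% of its UMIs in unwounded skin in 1 cell. krt1-19d (0.0491), sult2st3 (0.0637) and si:ch211-217k17.9 (0.0736) were the other low genes at 2 dpw. pvalb8 and grp had 0 UMIs at 4 dpw, against 245 and 193 UMIs in unwounded skin, and ccl20b had a ratio of 0.119. At 6 dpw the mix of groups lay nearest to unwounded skin, but avil-positive cells were 29.5% of the agr2-positive cells, against 17.8% in unwounded skin. There alox5ap had a ratio of 4.75 (3.29 to 7.02) and gstt1b, for a glutathione transferase, 3.93 (3.03 to 5.15). Of their UMIs at 6 dpw 89 of 140 and 183 of 241 lay in avil-positive cells, so these ratios also move with the mix. pdia2 (13.5), tppp (11) and si:dkeyp-75b4.10 (3.77) were genes of the cst14b.2-positive cells, of which there were 3. Among cells with at most 10000 UMIs the pdia2 ratio was 0.793. isg15 (0.240, 0.203 to 0.282), si:ch1073-67j19.1 (0.241), ccl20b (0.131), pvalb8 (0.108) and grp (0 UMIs) were the lowest at 6 dpw. The si:ch1073-67j19.1 ratio was 22.2 with agr2 at 0.2% of UMIs.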

How the data were processed

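Skin of adult zebrafish was measured by single-cell RNA sequencing in 4 libraries, 1 per condition. The authors deposited UMI counts per gene and called cell, which are not normalized and which they made with Cell Ranger 6.1.2. Their processing notes also name the genome build GRCz11 and Seurat 4.3.0, and the annotation release is not given in the sources used here.

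Cells with 500 to 30000 UMIs, 200 to 4500 genes and under 25% mitochondrial UMIs were kept, which left 29185 cells with 43307637 to 56867519 UMIs per library. Doublets were not called. UMIs were summed per library and group and given as CPM with exact Poisson intervals. Ratios between libraries have exact conditional intervals, shares exact Clopper-Pearson intervals and ratios of shares Katz intervals. A gene was called at a ratio of at least 2 or at most 0.5, with at least 50 UMIs over both libraries. A floor of 3 UMIs was used to rank the genes named by stage, and against other cells where these held 0 UMIs. Called genes and intervals used no floor. The counts with no minimum therefore include genes with 0 UMIs in 1 of the libraries compared. Genes named by rule were the 5 with the highest and the 5 with the lowest ratio at each stage (at least 100 UMIs, and a level no lower than in the other kept cells), the 20 with the highest median ratio over other cells (at least 200 UMIs), and examples from lists. The cells, groups and gene lists were chosen with earlier results of these data known. Epcam-positive and marco-positive cells met the rule of 3 UMIs and 0.05% for that gene and were not agr2-positive.

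Other scalings used edgeR 4.0.16 (TMM) in R 4.3.3 and median-of-ratios size factors. The rest used Python 3.11.15, numpy 2.4.6, scipy 1.17.1, pandas 2.3.3 and matplotlib 3.10.9. The ratios and calls were tested on simulated library sums with known folds and counting error only. Spread between cells was not simulated. Sequences, coordinates and antisense overlaps were not analysed here.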

Additional observations from a re-analysis of the deposited data

How the results depend on the processing

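The alternatives without cst14b.2-positive cells or cells over 10000 UMIs, and all those within groups, were chosen after seeing the data. No paired analysis was possible because each condition has 1 library, and for the same reason no library could be left out. With epithelial cells as the denominator, among which the cst14b.2-positive cells were counted although they carry hardly any epithelial RNA, the ratio of agr2-positive cells to unwounded skin was 1.22 at 2 dpw and 1.21 at 4 dpw, of mucin-positive cells 0.436 and 0.627, and of avil-positive cells 1.29 at 4 dpw. Without the cells past the cst14b.2 rule these ratios were 0.561 and 0.836 for agr2-positive cells, 0.459 and 0.647 for mucin-positive cells, and 0.643 and 1.33 for avil-positive cells at 2 and 4 dpw, so the values above 1 for agr2-positive cells came from the cst14b.2-positive ones. With agr2 at 0.2% of UMIs the ratio of agr2-positive cells was 0.431 at 2 dpw, with at least 1 mucin UMI 0.272, 0.310 and 0.431 at 2, 4 and 6 dpw, without cst14b.2-positive cells 0.295 and 0.387 at 2 and 4 dpw, and without cells bearing markers of other types 0.457 at 2 dpw and 0.849 at 6 dpw. Without cells bearing such markers the mucin-positive ratios were 0.369, 0.503 and 0.682. The ratio for mucin-positive cells was under 1 in each of these alternatives. Among the counts and shares 160 values under an alternative lay within the limits set for an unmoved value, 76 moved and 2 turned direction, and among the single genes 373, 109 and 8.

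Counts of genes past the 2-fold mark moved most with the UMI minimum. The minimum sets how many genes are tested, so counts move with it by construction. Leaving out cells also lowers the number of genes tested. The numbers tested are not given here, so the counts below cannot be read as shares. Over agr2-positive cells, higher and lower genes at 2, 4 and 6 dpw were 142 and 299, 100 and 79, and 36 and 42 with at least 200 UMIs, and 3405 and 4550, 3508 and 3251, and 3257 and 2841 with no minimum. In mucin-positive cells these were 10 and 37, 20 and 15, and 17 and 12, and 2454 and 4416, 2172 and 4672, and 2033 and 4177. Over agr2-positive cells the numbers with agr2 at 0.2% were 178 and 334 at 2 dpw, 181 and 143 at 4 dpw and 113 lower at 6 dpw. With at least 1 mucin UMI they were 101 and 243, 95 and 118, and 62 higher at 6 dpw. Without cells bearing markers of other types they were 66 and 274 at 2 dpw and 137 and 118 at 4 dpw, and without cst14b.2-positive cells 103 and 243, and 185 and 162. With at most 10000 UMIs per cell 194 were higher at 4 dpw and 63 at 6 dpw, and with equal weight for every cell 494 were lower at 4 dpw. In mucin-positive cells equal weight gave 283 lower at 2 dpw, 134 and 238 at 4 dpw and 231 lower at 6 dpw. At most 10000 UMIs gave 30 and 98, 41 and 60, and 36 and 53, median-of-ratios scaling gave 68 lower at 6 dpw, and leaving out cells with markers of other types gave 46 higher at 4 dpw.

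Single genes that turned direction were pdia2 at 6 dpw over agr2-positive cells, with 0.793 at up to 10000 UMIs per cell, and si:ch1073-67j19.1 with 22.2 at the agr2 threshold of 0.2%. In mucin-positive cells at 6 dpw they were si:ch211-153b23.5 (0.607), nos2a (0.0624) and sult2st3 (0.221) without the leading cell, sult2st3 also with equal weight (0.723) and at up to 10000 UMIs (0.0776), and stmn1a with 1.58 at up to 10000 UMIs. Apart from what each alternative leaves out by construction, the cause was not tested.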
